A study of Mus musculus with 5 samples.

Results

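Myeloid and antigen-presenting cells were examined among reporter-sorted cells of the inflamed mouse spinal cord. They were chosen from their own counts, as barcodes with at least 3 unique molecular identifiers (UMIs, which count captured RNA molecules) over Tyrobp, Fcer1g, Lyz2 and Ctss, spread over at least 2 of these genes, with Tyrobp or Fcer1g among them, and with no UMI of the T cell receptor genes Cd3d, Cd3e and Cd3g. Barcodes with fewer than 200 genes, or with over 10% of their UMIs from mitochondrial genes, were left out, and one found in several of the Healthy 1, Healthy 2 and EAE 1 files stayed where its UMI total was highest. This gave 101 members of 4678 kept barcodes, 99 of them among the 3151 kept barcodes of the EAE libraries. Because the members were picked by these transcripts, every gene in them that was set against the remaining barcodes is given as a description, with no test.

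Monocytes, macrophages, microglia, dendritic cells and neutrophils share a signalling module in which activating receptors without a signalling tail pair with the adaptor proteins encoded by Tyrobp (DAP12) and Fcer1g (the common gamma chain). Lyz2 encodes lysozyme of myeloid cells, and Ctss encodes cathepsin S, the protease that trims the invariant chain so that peptides can load onto MHC class II. Antigen-presenting cells carry such class II molecules to CD4 T cells, and in experimental autoimmune encephalomyelitis (EAE), a model of multiple sclerosis driven by an immune response to myelin, monocyte-derived and dendritic cells enter the cord and present antigen there.

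Each library came from the spinal cord of mice of the genotype Col1a1GFP on a C57/BL6 background, either with EAE (EAE 1 and EAE 2) or healthy (Healthy 1, Healthy 2 and Healthy 3). The reporter marks cells in which the gene of type I collagen is active, mainly fibroblasts, and the cells were sorted for it, so that the immune cells are those that came through a gate for another cell type. Libraries followed the 10x Genomics v2 protocol. The labels give no age or sex of the mice and no way or day of immunisation, and none says whether libraries came from separate animals. EAE 1, Healthy 1 and Healthy 2 were taken as 1 batch, and EAE 2 and Healthy 3, whose labels name a sequencing lane, as another.

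Promoters are printed for the class II genes and for the complement and Fc receptor genes that lead the results, because most genes of each group hold the same short motif. The sequences are RefSeq's (GRCm38.p6), from 250 bases before to 50 bases after the gene start, and are written 5′ to 3′ on the gene's own strand. In H2-Aa (chr17:34287774-34288073, minus strand), H2-Eb1 (chr17:34305617-34305916, plus strand) and H2-DMb1 (chr17:34152941-34153240, plus strand), capitals mark GATTGG or its reverse complement CCAATC, the core of the Y box of class II promoters.
H2-Aa: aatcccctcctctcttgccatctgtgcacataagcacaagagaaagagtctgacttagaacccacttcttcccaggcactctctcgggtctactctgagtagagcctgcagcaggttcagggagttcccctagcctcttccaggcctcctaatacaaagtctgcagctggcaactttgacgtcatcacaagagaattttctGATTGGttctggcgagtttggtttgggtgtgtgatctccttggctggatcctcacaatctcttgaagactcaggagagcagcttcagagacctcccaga
H2-Eb1: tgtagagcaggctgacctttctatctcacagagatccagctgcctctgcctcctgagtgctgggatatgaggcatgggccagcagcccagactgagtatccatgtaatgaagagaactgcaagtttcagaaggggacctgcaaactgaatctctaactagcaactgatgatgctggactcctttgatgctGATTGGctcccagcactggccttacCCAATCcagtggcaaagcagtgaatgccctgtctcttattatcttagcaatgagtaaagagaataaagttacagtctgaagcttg
H2-DMb1: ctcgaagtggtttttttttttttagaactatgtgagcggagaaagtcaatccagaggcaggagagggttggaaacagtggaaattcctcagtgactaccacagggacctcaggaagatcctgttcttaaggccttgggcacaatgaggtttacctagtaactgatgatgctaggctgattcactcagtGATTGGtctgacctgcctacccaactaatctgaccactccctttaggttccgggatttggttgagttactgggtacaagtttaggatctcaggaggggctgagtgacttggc

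In C1qb (chr4:136886151-136886450, minus strand), C1qc (chr4:136892865-136893164, minus strand) and Fcgr4 (chr1:171018676-171018975, plus strand), capitals mark GAGGAA or its reverse complement TTCCTC, a core of the sites bound by PU.1, the myeloid transcription factor that Spi1 encodes.
C1qb: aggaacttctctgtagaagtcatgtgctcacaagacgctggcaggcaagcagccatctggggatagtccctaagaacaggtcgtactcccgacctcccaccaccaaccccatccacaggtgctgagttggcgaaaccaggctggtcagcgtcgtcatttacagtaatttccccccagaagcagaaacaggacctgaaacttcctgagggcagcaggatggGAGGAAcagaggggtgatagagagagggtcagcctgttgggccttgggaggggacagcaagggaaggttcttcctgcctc
C1qc: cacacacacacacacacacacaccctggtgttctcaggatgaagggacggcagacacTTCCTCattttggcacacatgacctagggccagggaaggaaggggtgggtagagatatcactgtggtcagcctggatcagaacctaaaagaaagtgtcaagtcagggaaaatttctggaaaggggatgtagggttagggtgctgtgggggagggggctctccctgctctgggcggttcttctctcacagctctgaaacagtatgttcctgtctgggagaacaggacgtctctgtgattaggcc
Fcgr4: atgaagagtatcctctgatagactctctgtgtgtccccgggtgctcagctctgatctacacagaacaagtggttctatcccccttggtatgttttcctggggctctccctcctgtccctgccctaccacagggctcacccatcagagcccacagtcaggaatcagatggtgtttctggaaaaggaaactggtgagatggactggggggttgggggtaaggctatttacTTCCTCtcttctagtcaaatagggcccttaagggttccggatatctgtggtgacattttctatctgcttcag

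GATTGG, on either strand, was in 7 of the 8 promoters found for 11 listed class II genes (87.5%), against 16.6% of all 27025 promoters in the table. Its first base lay 49 bases before the gene start in H2-Aa, 60 and 35 bases before it in H2-Eb1, and 62 bases before it in H2-DMb1. GAGGAA, on either strand, was in 11 of the 15 promoters found for the 20 genes that stood out most in the members (73.3%), against 28.3% of all promoters. It began 30 bases before the start of C1qb, 193 before that of C1qc and 22 before that of Fcgr4. The motifs can share at most 1 letter, and a match is a description of the letters, not of binding.

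Members were a larger share of the EAE libraries than of the Healthy libraries. They were 86 of 1913 kept barcodes in EAE 1 (4.50%, exact 95% binomial interval 3.61% to 5.52%) and 13 of 1238 in EAE 2 (1.05%, 0.560% to 1.79%). In the Healthy libraries they were 1 of 724 in Healthy 1 (0.138%, 0.00350% to 0.767%) and 1 of 429 in Healthy 2 (0.233%, 0.00590% to 1.29%). In Healthy 3 they were 0 of 374, and the upper end of the same kind of interval leaves room for a share of 0.981%. Each EAE share was thus above each Healthy one, although EAE 1 held over 4 times the share of EAE 2. Members with under 0.5% of UMIs in 6 fibroblast markers were 3.92% in EAE 1 and 0.485% in EAE 2. The interval of the latter (0.178% to 1.05%) lay inside that of Healthy 2. Depth differed too, with a median of 4608 and 5023 UMIs in other barcodes of EAE 1 and EAE 2. It was 1210, 3197 and 4273 in Healthy 1, 2 and 3. A rule of at least 3 UMIs depends on depth, and its part in the shares was not tested. The mean was 2.77% ± 2.44 in EAE (SD, n = 2) and 0.124% ± 0.117 in Healthy libraries (SD, n = 3), a difference of 2.65 percentage points with an exact two-sided permutation p of 0.2. That is the smallest p that 2 libraries against 3 can give, so the design cannot place this difference past 0.05. Within batches the difference was 4.31 points in the first and 1.05 points in the second, and without EAE 1 it was 0.926 points. Intervals and limits cover counting error only, and what a sort for another cell type lets through may differ between sorts, which was not tested.

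**Figure D1:**
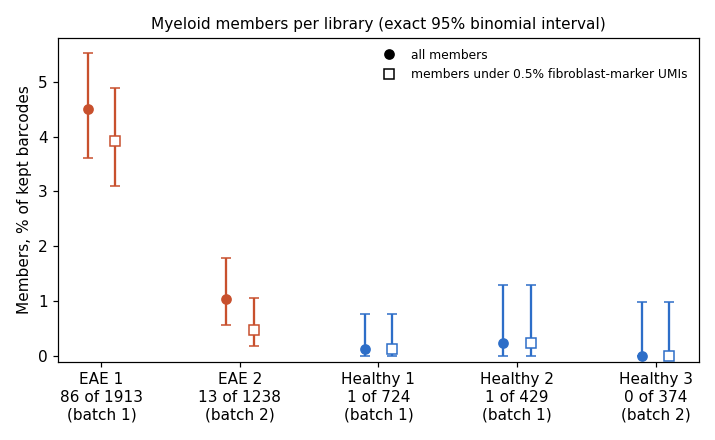
Members as a percent of kept barcodes (vertical axis) in each library, with exact 95% binomial intervals. Filled circles are all members and open squares those with under 0.5% of UMIs in 6 fibroblast markers. EAE 1 stands at 4.50% and EAE 2 at 1.05%, against 0.233% or less in the Healthy libraries.

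The members kept in the Healthy libraries were a single class II barcode and a single neutrophil barcode. The Healthy 1 member held 33 UMIs of H2-Aa and 72 of Cd74, with 0 of Lyz2, C1qa and S100a8. The Healthy 2 member held 498 UMIs of S100a8, a calcium-binding protein that fills neutrophils, with 34 of Lyz2 and 0 of H2-Aa and Cd74, in a barcode of 1999 UMIs. Neither had a UMI of Mrc1, Pf4, Lyve1 or Cd163, which mark the resident macrophages of the meninges and vessel walls, or of the microglia gene P2ry12. Neither held a fibroblast-marker UMI.

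The files of the first batch share barcodes, which bears on who is a member. Of the 1827 other barcodes kept in EAE 1, 1227 (67.2%) were also found in the files of Healthy 1 or Healthy 2, with fewer UMIs there. Among the EAE 1 members, 10 of 86 recurred in this way. The 1 member of Healthy 2, which held no fibroblast-marker UMI, was also found in another file of this batch. So were 310 of the 428 other Healthy 2 barcodes (72.4%). In the second batch, whose files the rule did not join, EAE 2 and Healthy 3 shared 1 barcode, which was no member.

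EAE members fell into a group with almost no fibroblast transcripts and a smaller group with as many as fibroblasts hold. The UMIs of Col1a1, Col1a2, Col3a1, Dcn, Lum and Pdgfra, 6 genes of collagen-making cells, made up a median of 2.60% of the UMIs of other barcodes in EAE 1 and 2.46% in EAE 2. In EAE 1, 75 of 86 members had at most 0.182% and 11 had 0.832% to 6.30%. In EAE 2, 6 of 13 members had at most 0.274% and 7 had 0.878% to 3.23%. No member lay between these ranges, so a limit of 0.5%, set after the values were seen, splits them into collagen-poor and collagen-rich members. With 0 fibroblast-marker UMIs there were 60 members in EAE 1 and 3 in EAE 2.

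Collagen-rich members held fewer UMIs of the rule genes than collagen-poor ones. They held a median of 4 UMIs of the rule genes in EAE 1, against 34 in collagen-poor members there, and of 12 in EAE 2, against 19.5. Their median depth was 6133 UMIs in EAE 1 and 5313 in EAE 2, against 2854 and 4149 in the collagen-poor members of these libraries. In EAE 1, 10 of the 11 collagen-rich members recurred in a Healthy file, and 0 of the 75 collagen-poor members did. Among barcodes over 3000 UMIs the counts were 0 of 35 collagen-poor members and 1188 of 1374 other barcodes with at least 0.5% fibroblast-marker UMIs. Over 5000 UMIs they were 0 of 12 and 732 of 734. Whether collagen-rich members are single cells, doublets or fibroblasts with free myeloid RNA was not tested, and no doublet caller was run.

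**Figure D2:**
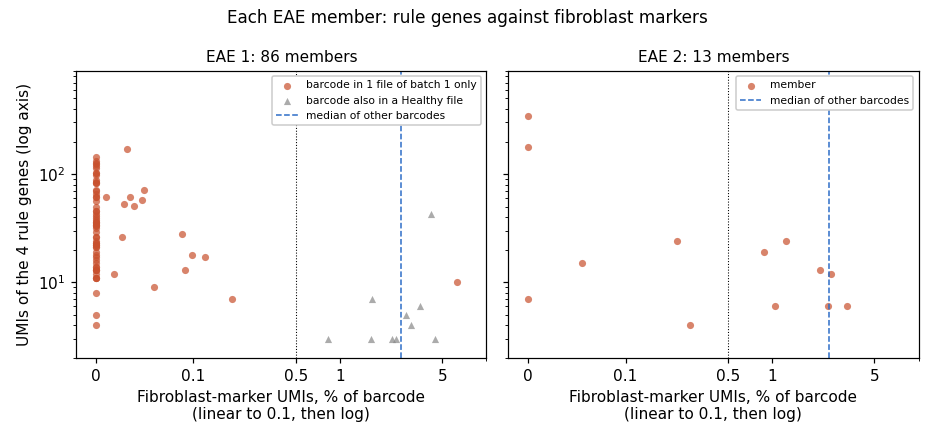
Each EAE member as a point, by the share of its UMIs in 6 fibroblast markers (horizontal axis, linear to 0.1% and then log) and its UMIs of the 4 rule genes (vertical log axis). The dotted line is the limit of 0.5% and the dashed line the median of other barcodes. Triangles, barcodes that recur in a Healthy file, all lie right of the dotted line.

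At the edge of the rule, 5 members of EAE 1 had exactly 3 UMIs of the rule genes and 5 barcodes just outside had 2, while EAE 2 had 0 and 1. The median share of fibroblast-marker UMIs was 2.27% in EAE 1 members with 3 to 5 rule UMIs and 3.26% just outside. A further 25 barcodes of EAE 1 and 0 of EAE 2 met the rule apart from a Cd3 UMI. Among all kept barcodes, 65 in EAE 1 and 26 in EAE 2 held a Cd3 UMI.

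The 4 rule genes were present at high levels in both libraries, unevenly over the members. Levels are given in CPM, the UMIs of a gene per 1000000 UMIs summed over the barcodes of a kind. In the 10x protocol a transcript is counted once whatever its length. Tyrobp had 1984 CPM in the members of EAE 1 and 19.7 in its other barcodes, and 1507 CPM in the members of EAE 2 and 1.67 in its other barcodes. Fcer1g had 2280 against 28.0 CPM in EAE 1 and 1169 against 1.67 CPM in EAE 2. Ctss stood at 1540 against 15.2 CPM and 2268 against 4.59 CPM, and Lyz2 at 4630 against 35.5 CPM and 4296 against 10.6 CPM. These differences follow from the choice of members. Tyrobp was found in 81 of 86 members of EAE 1 and 12 of 13 of EAE 2. Lyz2 was found in 58 and 10 of them, and 1 barcode gave 219 of its 305 UMIs in EAE 2.

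The rule genes lie apart in the genome (mm10, GENCODE M21). Tyrobp spans chr7:30413760-30417585 on the plus strand, Fcer1g chr1:171229572-171234365 on the minus strand, Lyz2 chr10:117277331-117282321 on the minus strand and Ctss chr3:95526786-95556403 on the plus strand. H2-Aa, which encodes the alpha chain of class II I-A, spans chr17:34282744-34287823 on the minus strand.

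The genes that set the members apart in both libraries, beside those of the rule, were a small part of all genes. Of 12296 genes with enough UMIs in both libraries (at least 10 in the sum of members and other barcodes), 140 (1.14%) were at least 4-fold higher in members of both. Within EAE 1 alone there were 305 (2.48%) and within EAE 2 alone 311 (2.53%). The reverse, at least 4-fold lower in members of both, held for 18 genes (0.146%), with 453 (3.68%) in EAE 1 and 26 (0.211%) in EAE 2. Sums under 3 UMIs were set to 3, so a fold against an empty group is a bound. This floor lifts low folds most in the members of EAE 2, which held fewer UMIs, so fewer genes can be called lower there. A gene found almost only in members reaches the minimum through them alone, and these counts describe how the members were chosen rather than a test of them. The 1.14% over all genes is the share to set beside each later count of list genes higher in both.

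The 20 genes with the largest fold in the library where it was smaller, leaving out the rule genes, were C1qc, C1qa, Bcl2a1a, Fcgr4, C1qb, Ms4a7, Spi1, Ly86, Aif1, S100a9, Ccl6, AF251705, Cyp4f18, Ms4a6d, Lilrb4a, Trem2, Wfdc17, C5ar1, Fcgr3 and Pld4. Their smaller folds ran between 87.8 for Pld4 and 296 for C1qc. Spi1, which encodes the master regulator PU.1, had 340 CPM in 51 of 86 members of EAE 1 against 2.56 CPM in its other barcodes, and 141 CPM in 6 of 13 members of EAE 2 against 0.973. Aif1, whose product IBA1 is the usual stain of microglia and macrophages, had 656 against 5.13 CPM in EAE 1 and 310 against 0.695 CPM in EAE 2. Ly86 (MD-1), a partner of the receptor RP105, had 299 against 2.26 CPM in EAE 1. In EAE 2 it had 282 against 0.139 CPM. Spi1 was thus spread over members in both libraries, while 16 of 22 Aif1 UMIs and 15 of 20 Ly86 UMIs in EAE 2 came from 1 barcode. S100a9 was in 4 of 86 members of EAE 1, 1 of which gave 34 of its 64 UMIs, and in 1 member of EAE 2. Ms4a6d was in 1 member of EAE 2 as well. For Bcl2a1a, near-identical copies exist in the genome (Bcl2a1b and Bcl2a1d), so the split of its reads between them is uncertain.

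MHC class II genes had the highest summed level of the 19 lists of function genes in members of EAE 1, and a lower one in EAE 2. The class II list summed to 24384 CPM in members of EAE 1 against 241 CPM in its other barcodes, and to 2845 CPM in members of EAE 2 against 49.1 CPM. All 6 of its 11 genes with enough UMIs were at least 4-fold higher in both libraries, with a median fold of 105 in EAE 1, where the median over all genes was 1.03. Cd74, the invariant chain that guides class II to the endosome, had 10065 CPM in 75 of 86 members of EAE 1 and 109 CPM in its other barcodes. In EAE 2 it had 1803 CPM in 9 of 13 members and 28.4 CPM in other barcodes. H2-Ab1, the beta chain of I-A, had 5556 against 47.5 CPM in EAE 1 and 239 against 4.73 CPM in EAE 2. H2-Aa followed with 4142 against 34.8 CPM and 394 against 6.53 CPM, and H2-Eb1, the beta chain of I-E, with 3087 against 26.4 CPM and 183 against 4.73 CPM.

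The peptide editor of class II was there with its targets. H2-DMa and H2-DMb1, which encode the chains of H2-M that exchange the invariant-chain peptide for antigen, had 754 and 588 CPM in members of EAE 1 against 11.1 and 9.64 in other barcodes. H2-Oa and H2-Ob, which encode the H2-O brake on that exchange, had 13 and 4 UMIs in 6 and 3 members of EAE 1. Ciita, the co-activator that switches class II genes on, had 12 UMIs in 10 members of EAE 1, and H2-Eb2 had 0 in both libraries. Not every member carried class II. Of the 86 members of EAE 1, 63 held at least 10 class II UMIs and 10 held 0, and in EAE 2 these were 3 and 4 of 13.

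Class II RNA was also found in the other barcodes, unevenly over their kinds. Barcodes with a Cd3 UMI were set apart first, whatever their share of fibroblast-marker UMIs. In EAE 1, 25 of these 65 held a Col1a1 UMI and 20 a Dcn UMI, and 25 met the rule apart from Cd3. Of Cd74, 604 UMIs lay in the 65 EAE 1 barcodes with a Cd3 UMI (1793 CPM, in 26 of them), 285 in 110 other collagen-poor barcodes (335 CPM, in 22 of them) and 172 in 1652 other collagen-rich ones (20.1 CPM). In EAE 2, 125 lay in 49 other collagen-poor barcodes, 79 in 1150 other collagen-rich ones and 0 in the 26 barcodes with a Cd3 UMI. Of members of EAE 1, 87.2% held a Cd74 UMI and 75.6% an H2-Aa UMI, at a median depth of 3127 UMIs, against 6.9% and 2.0% of its other collagen-rich barcodes at a median of 4663 UMIs. In EAE 2 the shares were 69.2% and 38.5% of members at 5179 UMIs, against 4.4% and 1.2% of other collagen-rich barcodes at 5210 UMIs. In EAE 1 the members thus held class II at shares above those of the other collagen-rich barcodes, at a lower depth. How much of the RNA in the other barcodes was free RNA was not tested.

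MHC class I genes, which nearly every cell uses, had a higher summed level in members of both libraries, by less than class II. The list summed to 11927 CPM in members of EAE 1 against 8313 CPM in other barcodes and to 10634 CPM in members of EAE 2 against 4111 CPM. Of its 10 genes, 0 were 4-fold higher in both, where the share over all genes was 1.14%. Its median fold in EAE 1 was 1.97. B2m, the light chain of class I, was found in all 86 and all 13 members, at 5975 against 4507 CPM in EAE 1 and 5550 against 1946 CPM in EAE 2. Psmb8, a subunit of the immunoproteasome that cuts peptides for class I, was 4.08-fold higher in members of EAE 1 and 2.21-fold in those of EAE 2.

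Co-stimulators, which turn antigen recognition into T cell activation, were low in UMIs. Cd86, a ligand of CD28, had 50 UMIs in 30 members of EAE 1 (148 against 1.74 CPM) and 8 UMIs in 2 members of EAE 2. Cd83, which keeps class II and CD86 on mature dendritic cells, had 51 UMIs in 22 members and 5 in 2. Both were 4-fold higher in both libraries, as 2 of 8 genes of the list with enough UMIs. Cd80, the other CD28 ligand, had 6 UMIs in EAE 1 and 0 in EAE 2. Cd274, which encodes the checkpoint ligand PD-L1, had 30 UMIs in 20 members of EAE 1 (88.7 against 8.20 CPM) and 1 in EAE 2.

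Fc receptors, which bind antibody-coated targets and signal through the Fcer1g product, were higher in both libraries for each gene of the list with enough UMIs (6 of 11). The list summed to 1050 CPM in members of EAE 1 against 26.8 CPM in other barcodes and to 1085 CPM in members of EAE 2 against 19.5 CPM. Fcgr4, a receptor for IgG2 antibodies, had 139 CPM in 22 members of EAE 1 against 0.718 CPM, and 141 CPM in 3 members of EAE 2, where its other barcodes held 0 UMIs. Fcgr3 had 219 against 2.46 CPM and 254 against 0.695 CPM. Trem2, a lipid receptor of macrophages and microglia that signals through the Tyrobp product, had 56.2 against 0.513 CPM in EAE 1 and 296 against 0.278 CPM in EAE 2. Fcgr1 and the inhibitory receptor Fcgr2b, with 58 and 70 UMIs in members of EAE 1 and 6 and 2 in those of EAE 2, had too few UMIs in EAE 2 to be assessed there. Fcer1a, the IgE receptor chain of mast cells and basophils, had 0 in both.

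Complement genes differed among themselves. C1qa, C1qb and C1qc, whose products form the C1q recognition molecule made by macrophages and microglia, had 426, 751 and 334 CPM in members of EAE 1 against 1.54, 4.51 and 1.13 CPM in other barcodes. In EAE 2 they had 1563, 1718 and 1775 CPM against 1.95, 1.11 and 1.25 CPM. A single barcode gave 104 of 111 C1qa UMIs, 98 of 122 C1qb UMIs and 106 of 126 C1qc UMIs of EAE 2, whereas the EAE 1 UMIs came from 18, 25 and 21 members with at most 25, 40 and 18 in 1 barcode. C5ar1, the receptor for the attractant C5a, had 20 UMIs in 11 members of EAE 1 and 7 in 2 of EAE 2. C3, the central component that fibroblasts also make, had 124 CPM in members of EAE 1 against 420 CPM in other barcodes and 282 against 364 CPM in EAE 2. Of 7 complement genes with enough UMIs, 4 were 4-fold higher in both libraries.

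Chemokines divided by whether the other sorted cells held them too. Of 16 chemokine genes with enough UMIs, 6 were at least 4-fold higher in both libraries, among them Ccl3 and Ccl4, which draw monocytes and T cells. Ccl4 had 1401 CPM in 34 members of EAE 1 against 30.3 CPM in other barcodes, and 1465 CPM in 3 members of EAE 2, 1 of which gave 86 of 104 UMIs, against 0.278 CPM. Ccl3 had 364 against 8.41 CPM and 408 against 0.417 CPM. Ccl6 and Ccl9, chemokines of mouse myeloid cells, had 624 and 435 CPM in members of EAE 1 against 5.23 and 6.77 CPM. Ccl2, the ligand of CCR2 that draws monocytes, had 565 against 358 CPM in EAE 1 and 239 against 430 CPM in EAE 2. Cxcl10, an interferon-induced attractant of T cells, had 370 against 371 CPM and 155 against 211 CPM. For both of these the other sorted cells held a level near or above that of the members.

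Ccr2, the receptor that brings inflammatory monocytes into tissue, had 120 UMIs in 49 of 86 members of EAE 1 (355 against 4.92 CPM) and 1 UMI in EAE 2 (14.1 against 1.39 CPM). Ly6c2, the surface marker of these monocytes, had 194 UMIs in 40 members of EAE 1 and 0 in EAE 2. Ccr1, a receptor of Ccl3, had 36 UMIs in members of EAE 1 and 5 in those of EAE 2. Cx3cr1, the fractalkine receptor of microglia and resident macrophages, had 4 UMIs in 3 members of EAE 1 and 14 in 2 members of EAE 2, 13 of them in 1 barcode. Ccr7, which leads dendritic cells to lymph nodes, had 27 UMIs in 5 members and 10 in 1.

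Among cytokines, Il1b stood out. It encodes interleukin-1 beta, which is needed for full EAE, and had 849 CPM in 45 of 86 members of EAE 1 against 5.84 CPM in other barcodes, and 113 CPM in 3 of 13 members of EAE 2 against 3.89 CPM. Tnf had 10 UMIs in 7 members of EAE 1 and 5 in 4 members of EAE 2. Osm, which encodes oncostatin M, a cytokine that acts on stromal cells, had 75 UMIs in 25 members of EAE 1 (222 against 2.67 CPM) and 1 in EAE 2. Il23a and Il10 had 0 UMIs in members of both libraries, and Il12b had 3 in 1 member of EAE 1. At 338219 member UMIs in EAE 1 and 70997 in EAE 2, a count of 0 does not show that a cytokine was absent. Of 7 cytokine genes with enough UMIs, Il1b and Tnf were 4-fold higher in both libraries.

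Genes of the oxidative burst were high in members as well. Of 7 genes of oxidative burst and effector enzymes with enough UMIs, 5 were 4-fold higher in both libraries. Cyba and Cybb, the membrane subunits of the phagocyte oxidase, had 1419 and 183 CPM in members of EAE 1 against 223 and 3.79 CPM. In EAE 2 they had 1183 and 56.3 CPM against 191 and 1.67 CPM. Arg1, the arginase of alternatively activated mouse macrophages, had 49 UMIs in 12 members of EAE 1 and 25 in 2 of EAE 2, 22 of them in 1 barcode, and Nos2, its rival for arginine, had 6 and 0. Of the 10 genes of lysosomal breakdown, Lgmn and Ifi30 were 4-fold higher in both, while Ctsb had 766 against 712 CPM in EAE 1. Ctsd had 248 CPM in members of EAE 1 against 267 CPM in other barcodes but 3493 against 249 CPM in EAE 2, where 2 barcodes gave 93 and 126 of its 248 UMIs.

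Of the 11 myeloid transcription factors with enough UMIs, Spi1, Irf5, Irf8 and Runx3 were 4-fold higher in both libraries. Irf8, which directs monocyte and dendritic cell fate, had 662 against 48.9 CPM in EAE 1 and 169 against 33.6 CPM in EAE 2. Cebpb had 931 against 528 CPM and Zeb2 316 against 217 CPM in EAE 1, factors that the fibroblasts of the gate also held. No gene of the interferon-induced list was 4-fold higher in both (0 of 11), nor of matrix remodelling (0 of 9) or cell cycle (0 of 6). Over all genes 1.14% passed this call, so a count of 0 in lists this short says little about them. The interferon-induced list summed to 2179 CPM in members of EAE 1 against 1118 CPM in other barcodes and to 887 against 503 CPM in EAE 2. Matrix remodelling summed to 3385 against 7897 CPM and to 3718 against 6751 CPM. In the median, the interferon-induced genes had a fold of 2.30 in EAE 1, matrix remodelling 0.857 and cell cycle 1.02.

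In the remaining lists of function genes, those at least 4-fold higher in both libraries were 3 of 5 integrin and adhesion genes (Itga4, Itgb7 and Selplg), 2 of 4 pattern receptors (Tlr2 and Cd14), 2 of 12 lipid handling genes (Trem2 and Lgals3), 1 of 9 cytokine receptors (Csf1r), 1 of 4 chemokine receptors (Ccr7) and 1 of 6 iron genes (Slc11a1). The share over all genes was 1.14%, and a count of 1 describes that gene rather than its list. Csf1r, the growth factor receptor on which macrophages and microglia depend, had 37 UMIs in 26 members of EAE 1 and 25 in 2 members of EAE 2, 24 of them in 1 barcode. Hmox1, the haem-degrading enzyme, had 364 against 29.4 CPM in EAE 1 and 56.3 against 40.0 CPM in EAE 2. Medians of EAE 2 folds are not given, because the floor of 3 UMIs in a sum of 70997 raises the fold of every low gene there.

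**Figure D3:**
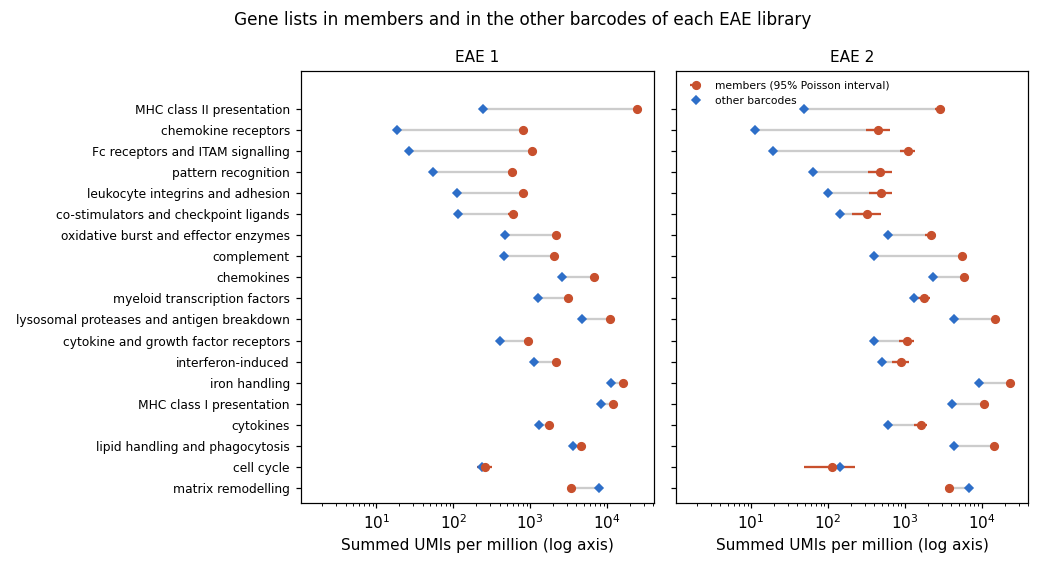
Summed level of each list of function genes in CPM (horizontal log axis) in members (circles, with 95% Poisson intervals) and other barcodes (diamonds) of each EAE library. Lists run down by their ratio in EAE 1, with class II at the top (24384 against 241) and matrix remodelling at the bottom (3385 against 7897).

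Members of the EAE libraries were clustered on their own into 5 clusters of 25, 25, 22, 19 and 8 barcodes. The genes that lead a cluster define it and are no result. Cluster 1, 25 barcodes of EAE 1, was led by Lcp2, Klra2, Spic, Gm5150 and Gpr141, and is called classical-monocyte-like. All 6 classical monocyte markers were detected in it, at a sum of 10728 CPM against 312 to 2283 CPM in the other clusters. Of them, Plac8 was in 25 of 25 barcodes, Ly6c2 in 22, Ccr2 in 21, Chil3 in 15 and Hp in 11. Il1b was at 1648 CPM there, in 19 barcodes. Spic rested on 1 barcode.

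Cluster 2, 23 barcodes of EAE 1 and 2 of EAE 2, was led by Tbc1d4, Cd209a, Ccr7, Amica1 and Ccl17, and is called dendritic-cell-like. Class II genes summed to 48748 CPM in it, against 21986 CPM in cluster 1 and 19044 CPM in cluster 3. Markers of several kinds of dendritic cell were spread thinly. Cd209a, a lectin of monocyte-related dendritic cells, was in 5 of 25 barcodes and Xcr1 and Clec9a, marks of the cross-presenting type, each in 5. Ccr7 was in 6 and Ccl17 in 3. At least 2 UMIs of conventional dendritic cell markers (1171 CPM) were in 15 of the 25 barcodes, and of mature dendritic cell markers (1492 CPM) in 9. Plasmacytoid dendritic cell markers (501 CPM) were at that count in 2. Classical monocyte markers were higher and wider, at 2283 CPM with at least 2 UMIs in 22 barcodes. The name therefore does not describe every barcode or every marker list of this cluster. Natural killer cell markers summed to 591 CPM in the cluster, with at least 2 UMIs in 6 barcodes. Cpa3 and most Gzmb UMIs of the cluster came from 1 EAE 2 barcode, which held mast cell and basophil genes.

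Cluster 3, 19 barcodes of EAE 1 and 3 of EAE 2, was led by C1qa, C1qc, Pf4, C1qb and Gpnmb, and is called macrophage-like. The 10 macrophage and monocyte markers summed to 11934 CPM in it, against 269 to 2403 CPM elsewhere. Of their 1039 UMIs in the cluster, C1qa, C1qb and C1qc gave 240, 346 and 223. These 3 genes also lead the cluster, so most of this contrast restates them and is no separate support for the name. C1qb was in 19 of 22 barcodes, Arg1 in 10, Pf4 in 7 and Mrc1 in 5. Lyve1 was at 0 in every cluster, and Cd163 was in 1 barcode here. Microglia markers were few, with Tmem119 in 2 barcodes and P2ry12 in 1, which came from EAE 2. In the members of EAE 1 as a whole Tmem119 and P2ry12 had 3 UMIs each. Neutrophil markers were higher in cluster 3 than in the other clusters, at 133 UMIs (1528 CPM). Of these, 129 came from 1 EAE 2 barcode with neutrophil genes, number 5 below, so the name does not cover every barcode.

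Cluster 4, 11 barcodes of EAE 1 and 8 of EAE 2, was led by Col1a2, Bgn, Col1a1, Col3a1 and Vps8, and 18 of its 19 barcodes were collagen-rich members. Fibroblast markers summed to 24812 CPM in it, and class II genes to 1955 CPM. Cluster 5, 8 barcodes of EAE 1, was led by Gzmc, Hbb-bt, Klra7, Hba-a1 and Hba-a2 and is left unnamed. All 36 UMIs of Gzmc lay in 1 barcode, and 1 barcode gave 3524 of the 3547 haemoglobin UMIs of the cluster. Each of its 8 barcodes held at least 2 UMIs of natural killer cell markers, which summed to 5960 CPM. All 7 of these markers were detected, among them Gzma at 3988 CPM and Ncr1 in 5 barcodes. Its class II genes summed to 4347 CPM, with at least 2 UMIs in 3 of the 8 barcodes. Natural killer cells use both adaptor genes of the rule. Of all members, 18 of 86 in EAE 1 and 0 of 13 in EAE 2 held at least 2 such UMIs, and 6 of those 18 held no class II UMI. No member of either library held 2 UMIs of the 5 B cell markers measured in both batches, while the immunoglobulin genes Ighm and Igkc are listed for the first batch alone. Ighm had 45 UMIs in 21 of 86 members of EAE 1 and 23 UMIs in 16 of its other barcodes. Igkc had 40 UMIs in 12 members and 42724 UMIs in 1047 other barcodes, 7609 of them in 1 barcode.

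**Figure D4:**
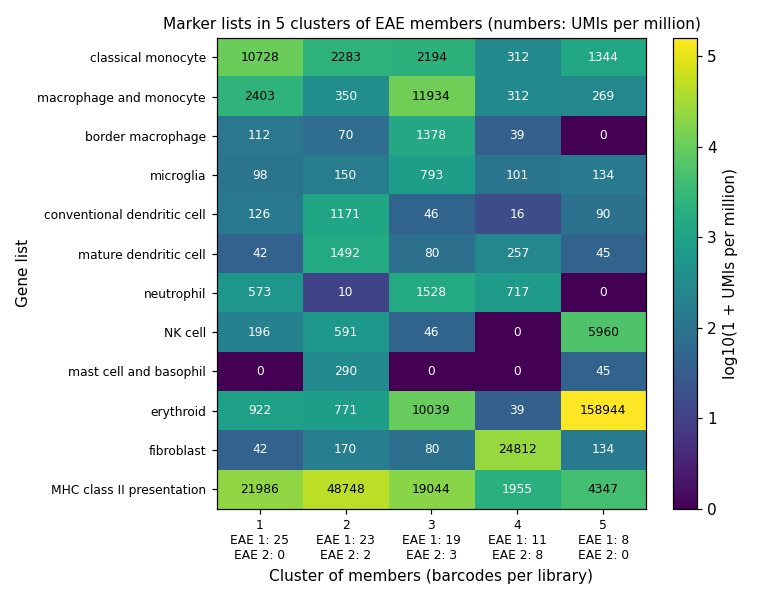
Summed level of 12 gene lists (rows) in the 5 clusters of EAE members (columns, with the number of barcodes of each library), in CPM, coloured as log10(1 + value). Classical monocyte markers peak in cluster 1 (10728), class II in cluster 2 (48748), macrophage markers in cluster 3 (11934), fibroblast markers in cluster 4 (24812) and natural killer markers in cluster 5 (5960).

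The 13 members of EAE 2 are few enough to be described singly, numbered by their share of fibroblast-marker UMIs. Number 1 held genes of mature dendritic cells, with 10 UMIs of Ccr7, 10 of Fscn1, which bundles actin in dendrites, 7 of Ccl22, 7 of Ccl17 and 129 of Ccl5, but 1 of H2-Aa and 15 of Cd74. Number 2 held genes of lipid-laden and tissue-remodelling macrophages, with 219 UMIs of Lyz2, 294 of Apoe, 40 of Lgals3, 22 of Arg1, 16 of Gpnmb and 14 of Spp1. Number 3 held microglia genes, with 7 UMIs of P2ry12, 13 of Cx3cr1 and 2 of Tmem119, beside 104 of C1qa, 24 of Csf1r and 86 of Ccl4. These 3 barcodes had no fibroblast-marker UMI.

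Number 4 held genes of mast cells and basophils, with 15 UMIs of Cpa3, 11 of Cma1, 3 of Mcpt8, 3 of Kit and 3 of Gata2, and 0 of H2-Aa and Cd74. No member of EAE 1 held 2 UMIs of this list. Number 5 was a shallow barcode of 1331 UMIs with genes of neutrophils, 100 UMIs of S100a8 and 28 of S100a9. Number 6 held 1824 UMIs, with 4 of the rule genes and 12 of Apoe. Each of the first 5 thus carried a different set of lineage genes, and the summed level of a gene in EAE 2 often stands for 1 barcode.

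Numbers 7 to 13 were the collagen-rich members, with 48 to 207 fibroblast-marker UMIs. They held 0 to 2 UMIs of Tyrobp and 0 to 3 of Fcer1g. Lyz2 was found in each of them, at 3 to 19 UMIs, whereas 3.9% of the other collagen-rich barcodes of EAE 2 held any. The median depth was 5313 UMIs in these members and 5210 UMIs in those other barcodes, and Lyz2 is a gene of the rule. None of them held a UMI of Ccr7, P2ry12, Cpa3 or S100a8, and Apoe stood at 16 to 126 UMIs.

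**Figure D5:**
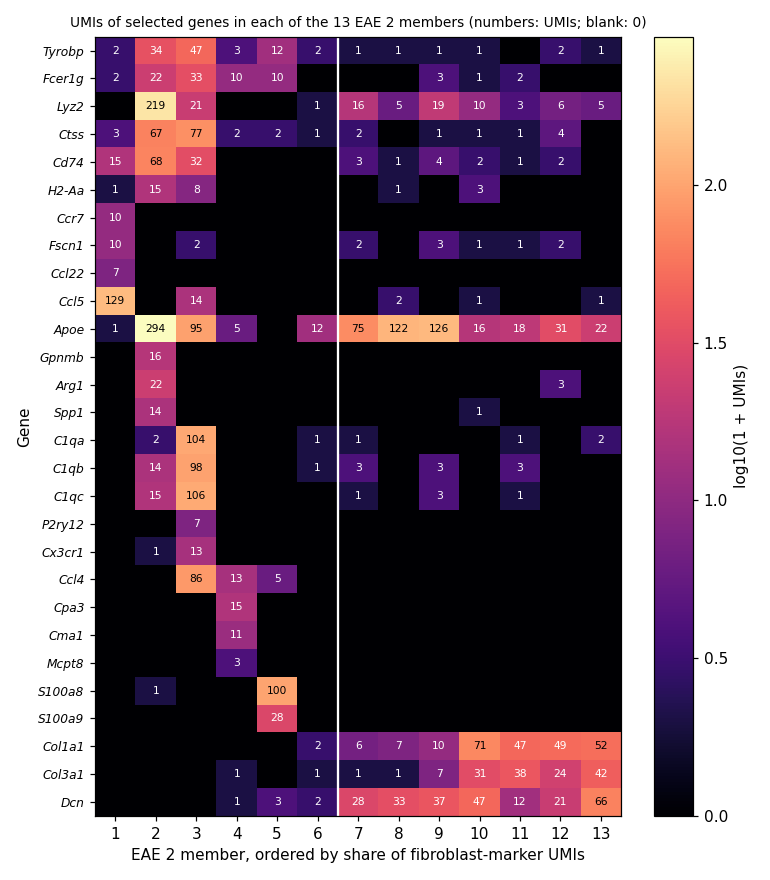
UMIs of selected genes (rows) in each of the 13 EAE 2 members (columns, ordered by share of fibroblast-marker UMIs), coloured as log10(1 + UMIs) with the count printed where above 0. The white line parts the 6 collagen-poor members on the left, each with few shared lineage genes, from the 7 collagen-rich ones with Col1a1 and Dcn.

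Between the members of EAE 1 and those of EAE 2, 5020 genes held enough UMIs, of which 74 (1.47%) were at least 4-fold higher and 252 (5.02%) at least 4-fold lower in EAE 1. Each side is 1 library, in different batches, so disease course, sort and batch cannot be told apart and no test is possible. The split depends on scaling, since under TMM size factors 162 were higher and 112 lower. Among collagen-poor members alone, 53 of 3484 genes (1.52%) were higher and 171 (4.91%) lower in EAE 1. The largest differences upward were Hbb-bs, Hba-a1, Hba-a2, Hspa1a, Hbb-bt and H2-Ab1, and those downward were Vps8, Syngr1, Cpa3, Cdkn1c, Luzp1 and Gzmb.

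H2-Ab1 had 5556 CPM in members of EAE 1, found in 63 of 86, and 239 CPM in those of EAE 2, found in 4 of 13. In collagen-poor members alone it had 7274 CPM in EAE 1 and 500 CPM in EAE 2, so the lower level in EAE 2 was there without the collagen-rich barcodes. That level is 15 UMIs in 2 of 6 barcodes, 11 of them in 1, and most of these 6 carried different lineage genes. H2-Aa showed the same order, with 5358 and 801 CPM. Downward, Syngr1, Cpa3 and Gzmb rested on single barcodes of EAE 2, with 22 of 26, 15 of 15 and 57 of 57 UMIs. Vps8 had 14.8 CPM in members of EAE 1 and 3423 CPM in those of EAE 2. In the other barcodes of these libraries it had 73.8 and 4091 CPM, so the same gap lay between the libraries outside the members.

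Haemoglobin RNA in EAE 1 rested mostly on a pair of barcodes. Members of EAE 1 held 4569 UMIs of Hba-a1, Hba-a2, Hbb-bs and Hbb-bt, of which 1 barcode gave 3524 and another 794, and the third highest gave 10. A haemoglobin UMI was found in 71 of 86 members, with a median of 3. Members of EAE 2 held 0. In the other barcodes of EAE 1 and EAE 2 the list stood at 706 and 1.81 CPM, so that the libraries differed in the same way outside the members. Hmox1 and the iron genes above were measured in the same barcodes, and the part of red cell RNA in them was not tested.

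The heat-shock gene Hspa1a, which encodes an inducible HSP70 and responds to stress during dissociation, was high in the collagen-poor members and the Cd3 barcodes of EAE 1. It had 1750 CPM in its members, in 62 of 86, and 42.3 CPM in those of EAE 2, in 2 of 13. Within EAE 1 it had 2315 CPM in collagen-poor members, 1137 CPM in other barcodes with a Cd3 UMI, 81.8 CPM in collagen-rich members, 50.7 CPM in other collagen-rich barcodes and 25.8 CPM in other collagen-poor barcodes. In EAE 2 it had 0 CPM in collagen-poor members, 67.0 CPM in barcodes with a Cd3 UMI, 79.2 CPM in other collagen-rich barcodes and 236 CPM in other collagen-poor barcodes. Its near-identical copy Hspa1b, which can share its reads, followed in EAE 1 with 214, 184, 23.4, 11.8 and 39.9 CPM in the same order of barcodes. Other stress and early response genes, chosen here after the values were seen, did not move together. Dnajb1, a partner of HSP70, had 289 CPM in collagen-poor members of EAE 1 against 108 CPM in other collagen-rich barcodes and 298 CPM in other collagen-poor ones. Fos and Jun had 2972 and 1642 CPM in collagen-poor members against 1999 and 1102 CPM in other collagen-rich barcodes. Egr1 lay the other way, with 202 CPM in collagen-poor members against 866 CPM in other collagen-rich barcodes.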

How the data were processed

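The authors deposited raw UMI counts per gene and cell barcode, 1 table per library, and every value in them is a whole number. Build mm10 and the tools Cell Ranger 2.1.1 and Seurat 3 are named in the submitters' processing notes. Any filter on barcodes ahead of deposit is unknown. The EAE libraries held 10775024 and 7317084 UMIs over 2156 and 1262 barcodes, and the Healthy libraries 1588693 to 1990869 UMIs over 376 to 2293. Of 28692 genes in the first-batch tables and 27998 in the second, the 27998 in both were used. No column of the tables was left unused.

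Members and lists were chosen with earlier results of these data known, so no count over them stands as independent support. UMIs were summed per library over members and over other kept barcodes and divided by the total (CPM). Folds set sums under 3 UMIs to 3. Genes needed 10 UMIs in members and other barcodes together in each library, and a gene called higher in both also 10 in members of EAE 1 and 3 in those of EAE 2. Intervals are exact 95% Poisson or Clopper-Pearson intervals for counting error only. Doublets were not removed and no caller was run. With 1 library on each side, members of EAE 1 and EAE 2 were compared without a test. Shares of members were compared by an exact two-sided permutation test over the 10 splits of 5 libraries. Members of the EAE libraries were clustered on log-normalised counts (10000 UMIs, 2000 variable genes, 30 components, 15 neighbours, Leiden resolution 1, scanpy 1.11.5 and leidenalg 0.10.2). Clusters were named from the listed markers only. The calculation of fold calls was checked on simulated sums, where 199 of 200 genes made 8-fold higher, drawn from the 4698 better expressed ones, were recovered in both EAE libraries. These sums had Poisson error alone, with no spread between barcodes, and 8-fold lies well past the limit of 4-fold. The check therefore gives no support to single calls, some of which rest on 1 barcode.

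Named genes were the rule genes, the Cd3 genes and H2-Aa, the 20 largest smaller-of-both-libraries folds, the 6 largest differences each way between EAE 1 and EAE 2, up to 5 genes of each list by CPM in EAE 1 with those at 0 in both, and the 5 leading genes of each cluster. Further genes of the fixed lists and Hspa1b, Fos and Jun were picked after their values were seen. Promoter sequences are RefSeq's, gene spans GENCODE's. TMM factors came from edgeR 4.0.16, used for scaling alone.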

Additional observations from a re-analysis of the deposited data

How the results depend on the processing

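The share of members stayed higher in EAE than in Healthy libraries under every alternative run, by 0.926 to 4.37 points over the libraries left out in turn and by 4.31 and 1.05 points within batches, where no p was computed. No p over these libraries can pass 0.05. The 140 genes higher in both EAE libraries became 40 when each barcode was thinned to 1000 UMIs and 91 with at least 20 UMIs in the sums, fewer UMIs or genes by construction. With EAE 1 or EAE 2 left out, 305 to 311 genes passed in the library that remained. Among genes higher and lower in members of EAE 1 against EAE 2, there were 26 and 82 after thinning, 22 and 55 at 8-fold, and 162 and 112 under TMM scaling. The lower ones numbered 379 with barcodes weighted equally and 101 with at least 20 UMIs in the sums, and the cause of the first was not tested. At resolution 0.5 the 5 clusters became 3, joining clusters 1 and 3 and clusters 2 and 5. An alternative with collagen-poor members alone and another without members of 500 or more haemoglobin UMIs were chosen after seeing the data. The first moved 33 of 38 list sums by more than their counting interval, the second 1. Allowing Cd3 UMIs raised the members of EAE 1 to 111. No paired analysis was possible because the label of EAE 1 carries no replicate number, so EAE and Healthy libraries share fewer than 2 numbers. The 13 members of EAE 2 held 70997 UMIs, so that 1 UMI equals 14.1 CPM there.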

Other observations

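Among lipid-handling genes, Apoe lay on opposite sides of the other barcodes in the 2 EAE libraries. Apoe, the carrier that macrophages and fibroblasts both secrete, had 1153 CPM in members of EAE 1 against 1963 CPM in its other barcodes, and 11508 CPM in members of EAE 2 against 3183 CPM. Of its 817 UMIs in EAE 2 members, 410 lay in the 7 collagen-rich members and 294 in 1 collagen-poor barcode. Collagen-poor members alone had 946 CPM in EAE 1 and 13576 CPM in EAE 2. Spp1 (osteopontin) had 340 against 887 CPM in EAE 1 and 211 against 636 CPM in EAE 2. Lgals3, a galectin of phagocytes, had 1795 against 135 CPM in EAE 1, in 72 of 86 members, and 732 against 43.2 CPM in EAE 2, in 6 of 13.

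The T cell receptor constant genes Trbc1 and Trbc2, listed for the first batch alone, had 16 UMIs in 9 and 6 UMIs in 5 members of EAE 1. Top2a, needed to part chromosomes, had 15 UMIs in 5 members of EAE 1 and 0 in EAE 2. The cell cycle list summed to 514 CPM in the collagen-rich cluster 4, against 60.1 to 161 CPM in the other clusters. Igf1 had 293 CPM in members of EAE 1 against 1130 CPM in other barcodes, and 1056 against 429 CPM in EAE 2. All 75 of its UMIs in EAE 2 members and 92 of 99 in EAE 1 members lay in collagen-rich ones.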
